A study of Mus musculus with 2 samples.

Results

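The genes described here are 8 components of the complement system that were followed through the mesenchymal stromal cells (MSC) of intestinal grafts: C1ra, C1s1, C4b, C2, C3, Cfb, Cfd and Serping1. They were chosen by name, with earlier results of these data known, as 8 of the 28692 features counted in each library. Every one of them had a row in both matrices. Complement is a cascade of serum and tissue proteins. In the classical pathway the protease C1r activates C1s, and C1s cuts C4 and C2, whose fragments form an enzyme that cuts C3. In the alternative pathway C3 is cut by an enzyme built from factor B (Cfb) after it has been cleaved by factor D (Cfd, also known as adipsin), and C1 inhibitor (Serping1) blocks C1r and C1s. The liver makes most complement of the blood, and fibroblasts are among the cells that make it in tissues.

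MSC came from the small intestine (SI) or the large intestine (LI) of mid-gestation EYFP (C57BL/6) embryos, sired by EYFP males on C57BL/6Nrj females, which had been grafted under the kidney capsule of adult WT mice and left for 4 weeks. All cells of both groups were therefore donor-derived, and host cells lacking YFP had been gated out, as had CD45+, Ter119+, BP3+, CD31+, EpCAM+ and L1CAM+ cells, while Itgb1+ cells were kept. There was 1 library of LI grafts and 1 of SI grafts. A library held cells of both sexes, hence of more than 1 embryo, and the kit (3′ or 5′) used for each library was not stated, so graft region, chemistry and donor embryos cannot be told apart. With 1 library per group no test between groups was possible, and every interval below covers counting error only.

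The LI library had 11568 barcodes and the SI library 9631, of which 9873 and 7910 passed the filters (500 or more genes detected, mitochondrial share no higher than 10%). Retained cells held 61023220 and 51656233 unique molecular identifiers (UMIs), with medians of 5288 and 5682 per cell. The libraries shared 26 barcodes, 14 of them among retained cells. Cells were placed in classes by the summed UMIs of marker lists per 10000 UMIs of the cell. Fibroblasts (FB) numbered 8028 in LI and 5724 in SI grafts. They comprised PDGFRAhi FB (637 and 415 cells; Sox6, Bmp7), Pi16 FB (697 and 407; Pi16, Dpp4), Grem1 CD81 FB (1829 and 2113), Fgfr2 FB (1933 and 1419; Adamdec1) and other FB that met none of these gates (2932 and 1370). Mural cells were pericytes (589 and 1048; Rgs5) and smooth muscle cells (SMC, 476 and 607; Myh11), and there were 335 and 53 interstitial cells of Cajal (ICC; Kit). Only 26 and 14 cells passed the mesothelial gate. A class cut from a rate is a range and not a type: 23.4% of LI and 23.8% of SI graft FB lay within 20% of a threshold. The median FB carried 378 (LI) and 499 (SI) fibroblast marker UMIs per 10000 and no immune, endothelial or epithelial marker UMI.

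To ask where in the stroma the genes were expressed, the summed UMIs of a gene were scaled to the total UMIs of each class (CPM, the UMIs of the gene per 1000000 UMIs). Levels are compared between cells and not between genes, and classes were ranked over the 8 with at least 50 cells in both grafts, which leaves out the mesothelial gate. Of the 8 genes, 7 reached 10 CPM in some class of both grafts, and 5 of these 7 (C1ra, C1s1, C3, Cfb and Serping1) had their highest level in 1 class shared by both grafts, the Pi16 FB. Over all genes, 49.9% of 9868 peaked in a shared class and 4.4% in Pi16 FB of both grafts. C4b and C2 were highest in Pi16 FB in LI and in Grem1 CD81 FB in SI grafts. PDGFRAhi FB, the fibroblasts that lie next to the epithelium, had the lowest level among the 5 FB classes for all 7 genes in both grafts, as had 8.61% of 8999 genes. The median depth of Pi16 FB was also above that of other FB classes, at 8961 (LI) and 8990 UMIs (SI), and the same 5 genes peaked in Pi16 FB after each cell had been thinned to 2000 UMIs. When whole clusters were assigned to classes in place of cells, only 2 of 7 (C3 and Cfb) peaked in Pi16 FB of both grafts.

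**Figure D1:**
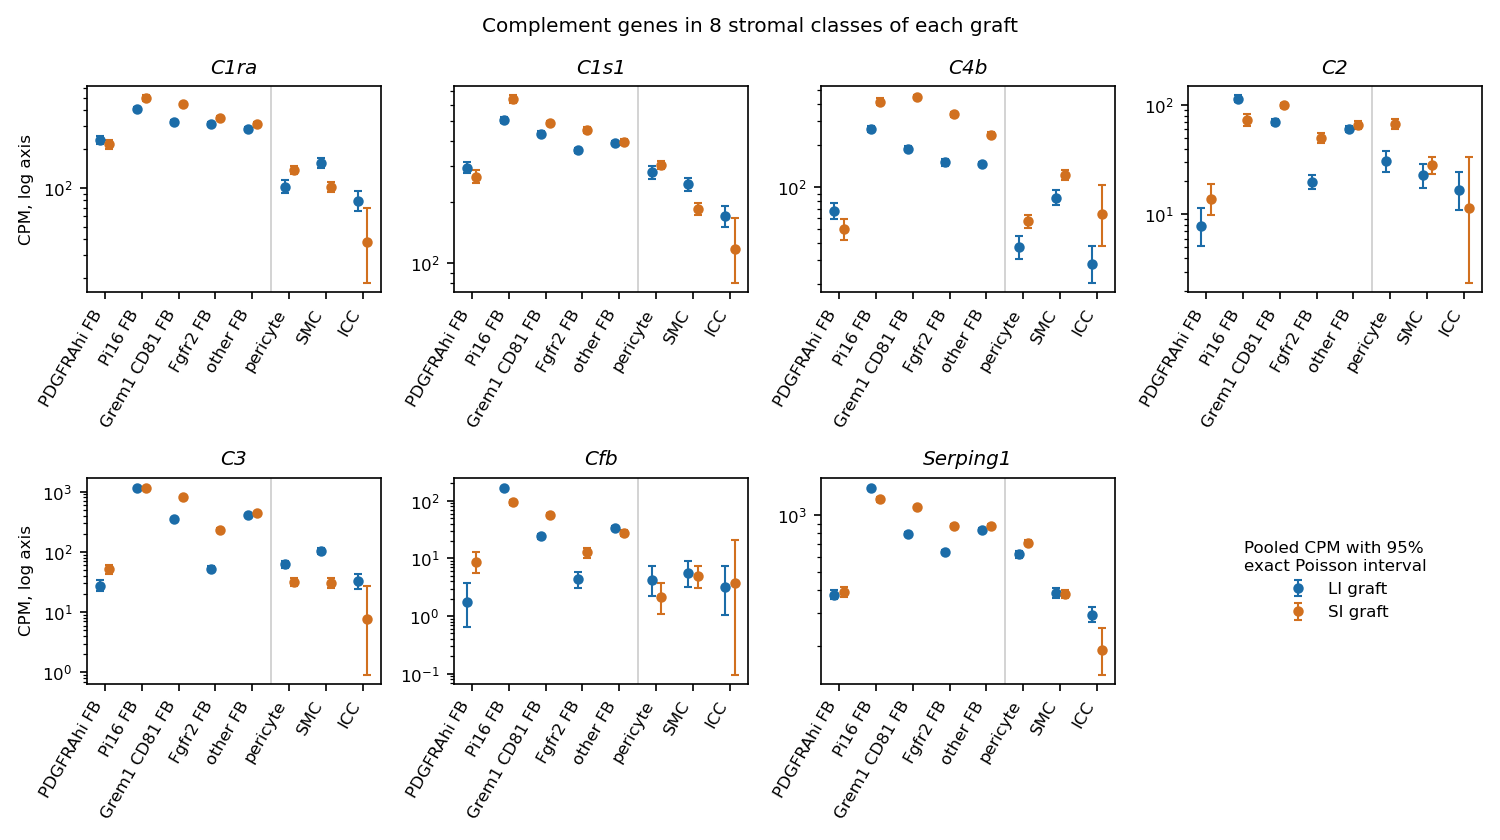
Pooled CPM (log axis) of 7 complement genes in 8 stromal classes of the LI graft (blue) and SI graft (orange), with exact Poisson 95% intervals. In both grafts C1ra, C1s1, C3, Cfb and Serping1 were highest in Pi16 FB, C3 and Cfb spanned the widest range, and Serping1 and C1s1 stayed high in pericytes.

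C1ra and C1s1 encode the paired proteases of the C1 complex. The genes lie on opposite strands of chromosome 6 with their ends 6.90 kb apart (C1ra at 124512405 to 124523443 on the plus strand, C1s1 at 124530345 to 124542359 on the minus strand, GRCm38). Both were spread over the whole stroma. C1ra was 408 CPM in LI and 498 CPM in SI Pi16 FB, 234 and 217 CPM in PDGFRAhi FB, and 102 and 137 CPM in pericytes. C1s1 was 508 and 642 CPM in Pi16 FB, 294 and 267 CPM in PDGFRAhi FB, and 280 and 305 CPM in pericytes. The lowest level of both genes was in ICC, where C1ra was 79.3 CPM in LI and 38.004 CPM in SI grafts and C1s1 170.1 and 117.8 CPM. Neighbouring classes often could not be told apart: the intervals of PDGFRAhi FB, pericytes and SMC overlapped in turn for C1s1 in LI grafts. The levels of both proteases ran in parallel, with a Pearson r of 0.95 for log2(CPM + 1) across the 16 class and library points, a description of points that share libraries and differ in depth.

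C4b and C2 encode the 2 substrates of C1s. C4b was lower in LI than in SI grafts in 7 of 8 classes and higher in PDGFRAhi FB (67.9 against 50.1 CPM), with intervals of the ratio that did not reach 0. In LI grafts it ranged from 28.1 CPM in ICC to 262 CPM in Pi16 FB, and in SI grafts from 50.1 CPM in PDGFRAhi FB to 447 CPM in Grem1 CD81 FB. Its level in SI Pi16 FB was 414 CPM, with an interval that lay below that of Grem1 CD81 FB. C2 ranged from 7.80 CPM in PDGFRAhi FB to 114.7 CPM in Pi16 FB of LI grafts. In SI grafts it was 99.8 CPM in Grem1 CD81 FB, 73.5 CPM in Pi16 FB and 67.4 CPM in pericytes, and the intervals of Pi16 FB and pericytes overlapped. In SI grafts a mural class thus stood among the higher classes for C2.

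C3, the protein on which all pathways meet, had a steep gradient. It reached 1150 CPM in LI and 1163 CPM in SI Pi16 FB, where 77.5% and 84.3% of cells had at least 1 UMI (59.9% and 63.7% after thinning to 2000 UMIs). Grem1 CD81 FB had 355 and 811 CPM, and Fgfr2 FB had 52.8 and 234 CPM. PDGFRAhi FB had only 27.4 and 51.9 CPM, with a UMI in 6.28% and 7.47% of cells. C3 UMIs were concentrated in few cells, since the 10% of retained cells with the most C3 held 84.6% of its UMIs in LI and 72.0% in SI grafts, against 34.9% and 34.2% for C1s1. The few cells of the mesothelial gate had the highest C3 of all, at 3278 CPM (95% interval 3014 to 3559, 26 cells) in LI and 1772 CPM (1555 to 2010, 14 cells) in SI grafts. C2 was also highest there (439 and 257 CPM).

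C3 lies on the minus strand of chromosome 17 (57203970 to 57228136, GRCm38). RefSeq promoters of 300 bases (GRCm38.p6) were at hand for 4 members, C3, C1s1, C1ra and Cfd, and were searched on both strands for 3 motifs of factors known to act on acute-phase and interferon-induced genes: C/EBP (TTGCNNAA), GAS (TTCNNNGAA) and ISRE (GAAA, any 2 bases, GAAA). The C/EBP letters were in the promoters of C3, C1s1 (the first of its 2 starts) and C1ra, and 10.8% of 32851 promoters held them. The C1ra promoter also held the GAS letters, both motifs lying downstream of the start, and that of Cfd held none. Neither C3 nor C1s1 held the GAS or ISRE letters, which were in 8.30% and 3.44% of all promoters. The matches upstream of the start are shown with 8 to 10 flanking bases, the motif in capitals, because C3 and C1s1 are the members with the steepest and the flattest gradients that have a promoter in the table. They began 45 bases (C3) and 242 bases (C1s1) before the start, at chr17:57228164-57228191 and chr6:124542584-124542609, both on the minus strand; in C1s1 the motif reads on the opposite strand.
C3: ggaaactatgTTGCGAAAttttgggcag
C1s1: agagagaaTTAGGCAAtctcaaaatt

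Cfb and Cfd are the proteases of the alternative pathway. Cfb was in the fewest cells of the 7 members with counts: the 10% of cells with the most Cfb held 100% of its UMIs in LI and 95.5% in SI grafts. It was 165 CPM in LI and 93.6 CPM in SI Pi16 FB, 24.2 and 56.9 CPM in Grem1 CD81 FB, and 1.73 and 8.77 CPM in PDGFRAhi FB. Pi16 FB, 7.06% of LI and 5.15% of SI graft cells, held 53.4% and 20.6% of all Cfb UMIs. Cfb was the gene whose pattern was closest to that of C3 among the members, with r = 0.93 across the 16 points. Cfb starts 85 bases beyond the end of C2 on the same strand (C2 34862604 to 34898265, Cfb 34856374 to 34862518, chromosome 17). Of the 91-base stretches of Cfb transcripts 67.9% are also in Gm20547, as are 36.01% of those of C2. Gm20547 has its own row, at 0 UMIs in both libraries, and reads in those stretches match both annotations, so the Cfb and C2 levels may be too low.

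Cfd was at or near 0 in the stroma. Its row was 0 in the LI graft, which by a limit of 3 counts allows up to 0.0492 CPM over all cells and a UMI in up to 0.0304% of cells. In the SI graft it had 149 UMIs, of which 142 were in 1 cell and the other 7 were single UMIs in 7 cells, 6 of them FB. The cell with 142 UMIs passed the adipocyte gate, with 28 UMIs of Car3, 10 of Adipoq and 36 of Fabp4, and was the single retained cell to do so. Factor D is best known as a product of fat cells.

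Serping1, the inhibitor, had the narrowest range over the 8 classes after C1s1 (4.72-fold in LI and 6.39-fold in SI grafts, against 2.98-fold and 5.45-fold for C1s1). It was detected in 89.4% of LI and 92.8% of SI graft FB, at 836 and 962 CPM. Pi16 FB had 1388 and 1214 CPM, pericytes 618 and 713 CPM, SMC 384 and 380.0 CPM, and PDGFRAhi FB 377 and 390.2 CPM. PDGFRAhi FB therefore lay below pericytes in both grafts and beside SMC, from which they could not be told apart in either graft. By the likeness of its pattern, Serping1 was closest to Plxdc2 (r = 0.96), C1s1 (0.95) and Ifrd1 (0.95) of 10924 other genes. C1s1 was closest to Plxdc2, Sparc and C1ra, and C1ra to Col3a1, Vkorc1 and Fndc3b (r = 0.95 to 0.97). C3 was close to Apbb1ip (0.97) and Gda (0.96), C4b to Col14a1, Tnxb and Spon1 (0.90 to 0.91), C2 to Nfkbia, Serping1 and Cd248 (0.89 to 0.91), and Cfb to Ggct, Hdlbp and Slc16a1 (0.94 to 0.97), each across 16 points.

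To compare fibroblasts with mural cells, FB were set against pericytes and SMC together within each graft. All 7 members with counts were higher in FB in both grafts, as were 31.6% of 8741 genes, and 4 of 7 (C1ra, C4b, C3 and Cfb) were at least 2-fold higher in both, whereas 4.5% of all genes were. C3 was 411 CPM in LI and 584 CPM in SI graft FB against 82.2 and 31.5 CPM in mural cells, a log2 ratio of 2.31 (interval 2.18 to 2.44) and 4.17 (4.02 to 4.33). The size of this ratio depended on the gate: with whole clusters assigned to classes it was 4.01 in LI and 3.69 in SI grafts, with stricter gates 2.95 and 4.40, and with doublets removed by score 2.37 and 5.28, so no order of the grafts is read from it. Cfb was 42.7 and 41.0 CPM against 4.92 and 3.34 CPM (log2 2.89 and 3.27). C1ra was 314 and 382 CPM against 129 and 121 CPM (log2 1.28 and 1.65), and C4b 169 and 344 CPM against 60.7 and 85.3 CPM. C1s1 and Serping1 were less than 2-fold higher, with log2 ratios of 0.63 to 0.85. C2 was 2-fold higher in FB of LI grafts (log2 1.13, but 0.92 after thinning to 2000 UMIs) but not in those of SI grafts (0.52), where pericytes had 67.4 CPM against 72.8 CPM in FB. The median log2 ratio of all genes tested was -0.10 in LI and -0.11 in SI grafts, and that of the 7 members 1.28 and 1.65.

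Some UMIs in mural cells may come from free RNA of fibroblasts. Dcn, a fibroblast gene, was in pericytes at 13.6% and 7.89% of its level over all cells of the LI and SI graft, and in SMC at 23.9% and 17.2%, which was taken as an upper bound of that share. C3 in pericytes was 1.22 and 0.894 times, and in SMC 1.14 and 0.392 times, the level this bound allows, and Cfb lay below the bound in both classes of both grafts. In pericytes C4b was 1.77 and 2.56 times, C1ra 2.62 and 5.47 times, C2 4.02 and 12.7 times, C1s1 5.38 and 9.58 times, and Serping1 5.82 and 10.6 times the level of the bound. The bound takes Dcn in mural cells to be free RNA, and the part of free RNA in these levels was not tested.

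To ask how many of the genes a single cell carried, each cell was thinned to 2000 UMIs. Of 7460 LI graft FB, 7.31% had none of the 8 genes and 16.1% had 4 or more, and of 5380 SI graft FB 5.56% and 28.6%. In Pi16 FB 47.8% and 45.01% had 4 or more, in PDGFRAhi FB 3.08% and 4.01%, and in mural cells 3.28% and 3.62%. C1ra and C1s1 were both detected in 35.7% and 43.2% of Pi16 FB and in 10.2% and 11.4% of mural cells. C3 with Cfb was seen together in 16.3% and 13.3% of Pi16 FB, against 1.69% and 6.08% of Grem1 CD81 FB.

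**Figure D2:**
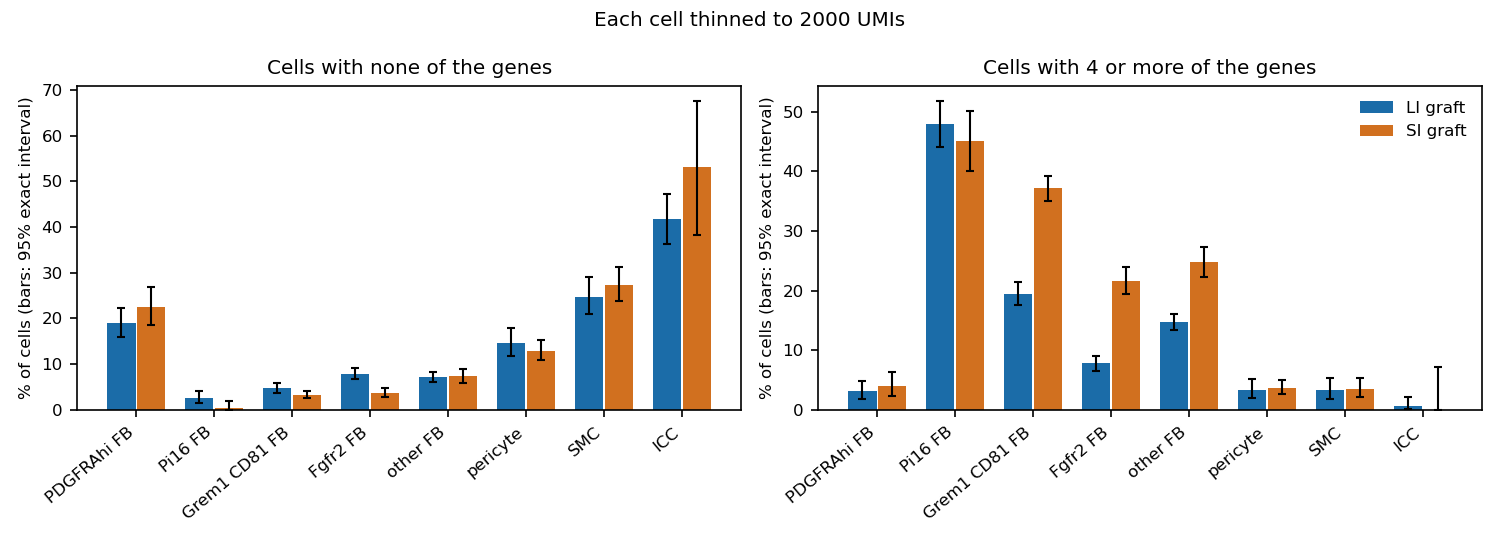
Share of cells (%) with a UMI of none of the 8 complement genes (left) and of 4 or more (right), in 8 classes of the LI graft (blue) and SI graft (orange), each cell thinned to 2000 UMIs; bars are exact 95% intervals. Pi16 FB had the highest share with 4 or more genes in both grafts (47.8% and 45.01%), and ICC the highest share with none (41.7% and 53.1%).

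To compare the grafts, levels in LI graft FB were divided by those in SI graft FB. C4b was the only member to differ by 2-fold: 169 CPM in LI against 344 CPM in SI grafts, a log2 ratio of -1.02 (interval -1.06 to -0.98). This is 1 of 7 members, whereas 3.52% of 8627 genes differed by at least 2-fold in either direction and 1.61% were higher in SI grafts, and the value stands at the threshold. The other members had log2 ratios of -0.51 (C3, 411 against 584 CPM) to 0.06 (Cfb, 42.7 against 41.0 CPM; -0.47 with every cell thinned to 2000 UMIs), and the median of all genes was -0.01. The pooled values hid larger differences within classes. In Fgfr2 FB C3 was 52.8 CPM in LI and 234 CPM in SI grafts (log2 -2.13, interval -2.27 to -1.99), while in Pi16 FB it was 1150 and 1163 CPM (log2 -0.02, interval -0.07 to 0.04). C4b was lower in LI grafts in Grem1 CD81 FB (log2 -1.24) and Fgfr2 FB (-1.14), and higher in PDGFRAhi FB (0.43, interval 0.13 to 0.74). Cfb and C2 were higher in LI grafts in Pi16 FB (0.81 and 0.63) and lower in Fgfr2 FB (-1.36 and -1.29). The cells of a gated class came in part from clusters with different leading genes in the 2 grafts. Of Pi16 FB, 37.2% in LI grafts were in a cluster led by Myoc, Lpl and Zim1, 31.7% in one led by Cthrc1, Prg4 and Ptx3 and 19.5% in one led by Ctla2a, Fgfbp1 and H2-Ab1, whereas in SI grafts 65.1% were in a cluster led by Pi16, Igfbp6 and Epyc and 21.1% in one led by Stmn4, Pcolce2 and Bglap2. Of Fgfr2 FB, 63.7% in LI grafts were in a cluster led by Col6a5 and Adamdec1, and in SI grafts 38.2% were in one led by Jchain and Col6a5 and 24.4% in one led by Epha5 and Adamdec1. The Grem1 CD81 FB were spread over clusters that each held at most 25.04% (LI) and 28.7% (SI) of them. The largest was led by Fmo2, Lsamp and Stc2 in LI grafts. In SI grafts it was led by the haemoglobin genes Hbb-bs, Hba-a1 and Hba-a2. Of PDGFRAhi FB, 82.7% and 81.2% were in the clusters led by Sox6. A ratio within a class therefore also compares these clusters, and their part in it was not tested.

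**Figure D3:**
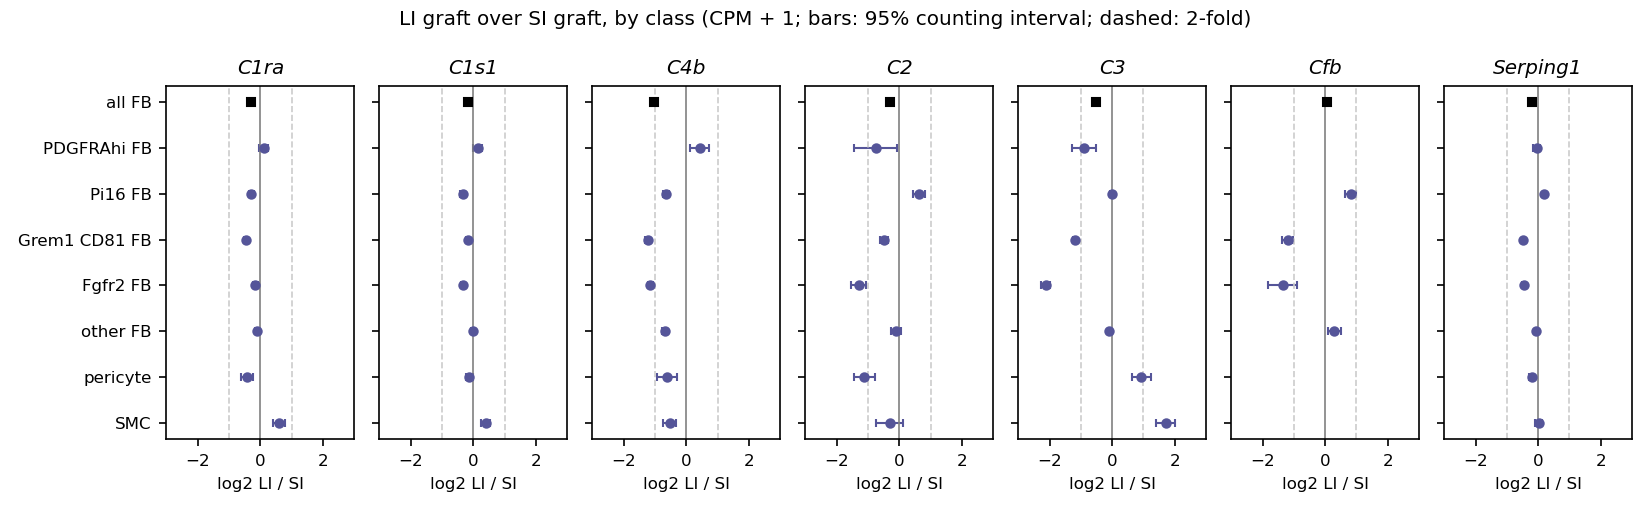
Log2 ratio of LI over SI graft (CPM + 1) for 7 complement genes in all FB (square) and in 7 classes (circles), with 95% counting intervals; dashed lines mark 2-fold, and ratios with both levels under 10 CPM (Cfb in PDGFRAhi FB, pericytes and SMC) are not drawn. C4b lies at -1.02 over all FB, C3 runs from -2.13 in Fgfr2 FB to 1.71 in SMC (a gated value; C3 was 21.9 CPM in the SMC cluster of LI and 27.1 and 19.2 CPM in those of SI grafts), and the ratios of C1ra, C1s1 and Serping1 lie within 2-fold in every class shown.

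The sex of the donor embryos moved with this comparison. Cells with a Y-linked UMI and no Xist made up 8.92% of LI and 23.4% of SI graft FB, and cells with Xist alone made up 6558 of 8028 and 3320 of 5724. Male FB had more of all 7 members than female FB in both grafts, as of 21.1% of 8326 genes. C3 was 879 CPM in male and 289 CPM in female FB of LI grafts, and 917 and 338 CPM in SI grafts. C4b was 231 against 154 CPM and 476 against 228 CPM. In all, 2 of 7 members (C3 and C2) were at least 2-fold higher in male FB in both grafts, against 0.613% of these genes. Male cells had a higher median depth as well (8970 against 5258 UMIs, and 8097 against 5503). Among LI graft FB 48.2% of male and 4.25% of female cells were MHC II positive, as defined below, and among SI graft FB 28.1% and 6.54%. The summed Fgfr2 FB markers were 1288 CPM in male and 4843 CPM in female FB of LI grafts, and 4037 and 4600.2 CPM in SI grafts. Among MHC II-negative FB of LI grafts 4 of 7 members were lower in male cells by sign, as were 48.6% of 8826 genes, with male over female log2 ratios of -1.60 (Cfb), -0.20 (C4b, interval -0.42 to 0.01), -0.18 (C1ra) and -0.16 (Serping1). In SI grafts 6 of 7 were higher by sign, as were 41.5% of 8628 genes, and Serping1 was at -0.01 (interval -0.06 to 0.04). Clusters differed in sex too: in LI grafts the clusters led by Areg (643 cells) and Ctla2a (688 cells) were 50.4% and 58.0% male (and 28.6% and 65.6% MHC II positive), and those led by Myoc, Kcnn3, Col6a5, Edil3, Fmo2 and Cthrc1 were each at most 0.657% male, so male and female cells of LI grafts came largely from different clusters. The part of MHC class II and of the class mix in the sex difference was not tested further, and sex cannot be told apart from the embryo or the graft a cell came from. Between female cells alone, C4b differed by log2 -0.56 between LI and SI grafts and Cfb by 1.27 (40.6 against 16.2 CPM). Between male cells C4b differed by -1.04 and Cfb by -0.50 (51.8 against 73.9 CPM), so the direction for Cfb turned with the sex of the cells.

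In both grafts part of the FB carried MHC class II genes (Cd74, H2-Aa, H2-Ab1, H2-Eb1), which fibroblasts switch on under interferon-gamma. FB were called MHC II positive at 5 or more such UMIs per 10000 from at least 2 of the 4 genes (851 LI and 796 SI graft cells) and negative at 0 (5647 and 3749). All 7 members were higher in MHC II-positive FB in both grafts, as were 18.9% of 8311 genes. C3 and C2, 2 of 7 members, were at least 2-fold higher in both grafts, against 0.866% of these genes. C3 was 984 CPM in MHC II-positive and 268 CPM in negative FB of LI grafts (log2 1.87, interval 1.83 to 1.92), and 1575 and 342 CPM in SI grafts (2.20, 2.16 to 2.24). C2 was 124 against 44.5 CPM and 198 against 38.9 CPM (log2 1.46 and 2.32).

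In SI grafts C4b and Cfb passed 2-fold as well. C4b was 697 CPM in MHC II-positive and 268 CPM in negative SI graft FB (log2 1.37), and 267 against 150 CPM in LI grafts (0.83). Cfb was 112 against 22.0 CPM in SI (log2 2.29) and 60.6 against 33.4 CPM in LI grafts (0.84). C1ra, C1s1 and Serping1 differed less, with log2 ratios of 0.34 to 0.52 in LI and 0.72 to 0.93 in SI grafts. Cells with 4 or more of the genes made up 39.95% and 64.6% of MHC II-positive FB and 11.97% and 21.3% of negative FB, with every cell thinned to 2000 UMIs.

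C3 was higher at each step of the MHC II rate (UMIs per 10000). C3 in SI graft FB was 342 CPM with no MHC II UMI, 441 CPM at rates under 5, 978 CPM at 5 to 20, 1671 CPM at 20 to 50 and 2439 CPM at 50 or more. In LI grafts the same steps were 268, 421, 634, 1111 and 1608 CPM. C4b in SI grafts was 268 CPM with none, 269 CPM at rates under 5 and 458, 792 and 964 CPM at the further steps. In LI grafts it was 307 CPM at 20 to 50 and 277 CPM at 50 or more, whose intervals overlapped. Cfb in LI grafts did not follow the steps, at 33.4 CPM with none, 57.3 CPM at rates under 5 and 39.7 CPM at 5 to 20.

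**Figure D4:**
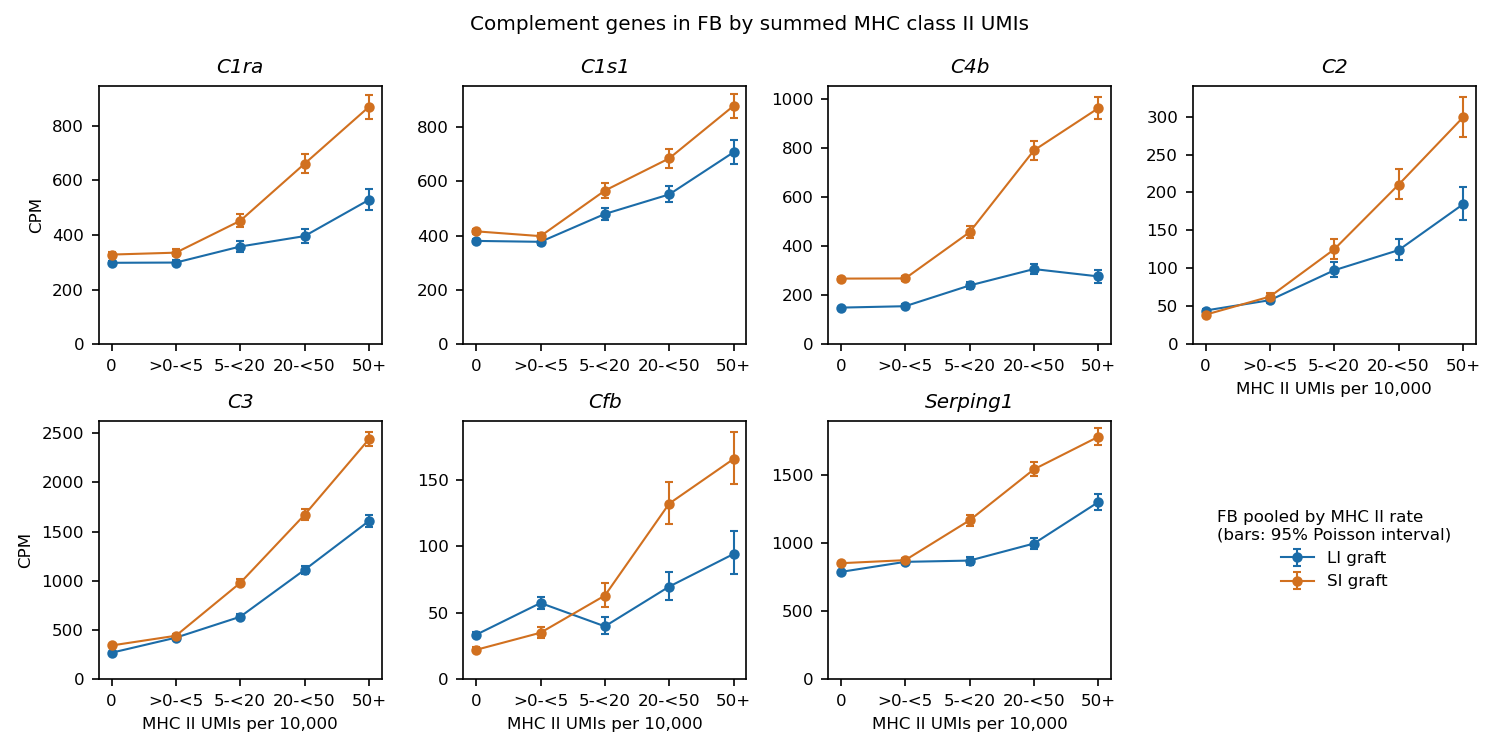
Pooled CPM (linear axis from 0) of 7 complement genes in FB of the LI graft (blue) and SI graft (orange), by summed MHC class II UMIs per 10000 UMIs of the cell; bars are exact Poisson 95% intervals. C3 climbs from 268 to 1608 CPM in LI and from 342 to 2439 CPM in SI grafts, C4b parts widely between the grafts at high rates, and Cfb of the LI graft dips at 5 to 20.

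MHC II-positive FB also differed in depth, sex, class mix and immune marker UMIs. Their median depth was 8073 against 5117 UMIs in LI and 7744 against 5470 in SI grafts. Of Pi16 FB 18.9% (LI) and 17.7% (SI) were MHC II positive, of Grem1 CD81 FB 15.3% and 19.3%, of Fgfr2 FB 4.60% and 10.4%, and of PDGFRAhi FB 3.92% and 4.58%. The summed Fgfr2 FB markers were 1817 against 4722 CPM in LI and 3921 against 4836 CPM in SI grafts, and the Grem1 CD81 FB markers 1441 against 949.9 CPM and 1928 against 1345 CPM. Values within classes are given below. Male cells were 40.5% of MHC II-positive and 3.33% of negative FB in LI grafts, and 47.4% and 16.7% in SI grafts. The summed level of 7 immune markers was 80.8 CPM in MHC II-positive against 32.0 CPM in negative FB of LI grafts, and 113.5 against 30.4 CPM in SI grafts. All 7 were above 0 in both groups, and Ptprc, which encodes CD45, was at 1.16 CPM or less in each. The part of these UMIs in the result was not tested. Cxcl9, an interferon-gamma target, was 1502 against 83.5 CPM in LI and 2765 against 212 CPM in SI grafts.

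For C3 the difference was present within each sex, at different sizes. In female FB C3 was 389 against 262 CPM in LI grafts (log2 0.57) and 763 against 291 CPM in SI grafts (1.39). In male FB it was 1227 against 299 CPM (2.03) and 1833 against 438 CPM (2.06). C2 was the 1 member of 7 at least 2-fold higher in female MHC II-positive FB of both grafts (1.04 and 1.52), against 0.5% of 8407 genes, and C3 passed only in those of SI grafts. In male FB C2 did not reach 2-fold in LI grafts (130.3 against 75.6 CPM, log2 0.78) but did in SI grafts (2.06), and the 3 of 7 members that passed in male FB of both grafts were C3, C4b and Cfb, against 0.688% of 7844 genes. Among MHC II-negative cells of LI grafts, C3 in male and female FB was 299 and 262 CPM, a log2 ratio of 0.19 (interval 0.05 to 0.33).

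The difference also varied between FB classes. In Grem1 CD81 FB C3 was 986 CPM in MHC II-positive against 172 CPM in negative cells of LI grafts (log2 2.51) and 1875 against 443 CPM in SI grafts (2.08). In Fgfr2 FB, where C3 was otherwise low, it was 299.7 against 35.5 CPM (3.04) and 767 against 144 CPM (2.40). In Pi16 FB of LI grafts, C3 was as high in negative as in positive cells (1146 and 1199 CPM, log2 0.06, interval -0.01 to 0.14), and Cfb was higher in negative cells (179.7 against 93.2 CPM, log2 -0.94). In Pi16 FB of SI grafts C3 was 2161 against 868 CPM (1.32) and Cfb 178.4 against 60.2 CPM (1.55). In MHC II-negative cells of the other 4 FB classes of the LI graft C3 was between 17.6 and 243 CPM.

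**Figure D5:**
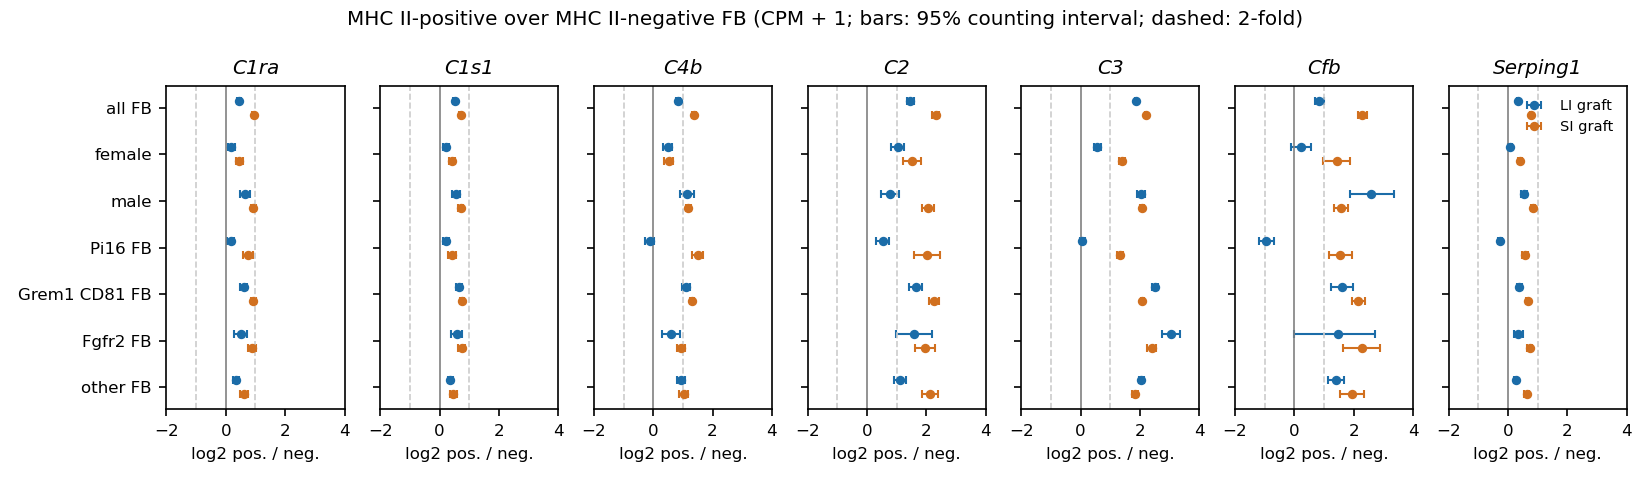
Log2 ratio of MHC II-positive over MHC II-negative FB (CPM + 1) for 7 complement genes in all FB, in female and male cells and in 4 FB classes of the LI graft (blue) and SI graft (orange), with 95% counting intervals; dashed lines mark 2-fold. C3 and C2 lie above 0 in every group shown, and Cfb in Pi16 FB is at -0.94 in LI and 1.55 in SI grafts.

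Cells were also clustered within each library with the 8 genes kept out, so that their levels describe clusters they did not shape. In LI grafts the highest Cfb was in a cluster of 422 cells led by Cthrc1, Prg4 and Ptx3, at 211 CPM, with 1230 CPM of C3 and MHC II positivity in 5.45% of cells. A cluster of 688 cells led by Ctla2a, Fgfbp1 and H2-Ab1, 65.6% of them MHC II positive, had 994 CPM of C3 but 58.4 CPM of Cfb. The highest C3 of any cluster was in the mesothelial one (3297 CPM, 29 cells). In SI grafts the highest C3 was in a cluster of 516 cells led by Cd74 and H2-Ab1 (1633 CPM, with 838 CPM of C4b and 97.0 CPM of Cfb), and the next in one of 839 cells led by Pi16 (966 CPM, with 93.0 CPM of Cfb). The lowest C3 of any FB cluster was in the cluster led by Sox6, at 12.4 CPM in LI and 34.4 CPM in SI grafts.

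The other genes of the cascade were mostly low in FB. Of 39 further complement genes, 38 had a row, and 8 reached 10 CPM in FB of a graft. Among recognition molecules Colec12, a scavenger receptor, was at 201 and 254 CPM. C1qb was at 9.69 and 13.1 CPM in FB against 406 and 62.6 CPM in the non-stromal cells. The latter were a mix of cells gated on immune, endothelial, epithelial and other markers. Of the terminal components only C7 passed, at 5.46 CPM in LI and 21.0 CPM in SI graft FB (log2 -1.77), and it was the single 1 of 8 to differ 2-fold between grafts, against 3.52% of all genes. C8a and C8b were at 0 UMIs in FB, which allows up to 0.0585 CPM in LI and 0.0786 CPM in SI grafts, and Hc, which encodes C5, at 0.0195 and 0 CPM. The regulators were well represented. Cd55, which breaks up C3-cutting enzymes on membranes, was 327 and 341 CPM in FB and 475 and 871 CPM in Pi16 FB, against 68.6 and 25.5 CPM in mural cells (log2 2.24 and 3.69). Vtn, which inhibits the terminal complex, was 181 and 298 CPM in mural cells against 1.97 and 4.11 CPM in FB. Clu was higher in MHC II-positive FB (log2 1.30 and 1.87), as was C1qb (1.97 and 2.77), together 2 of 8 against 0.866% of all genes, and immune marker UMIs were higher in these cells too, as given above. The receptors C3ar1 and C5ar1 were under 1 CPM in FB of both grafts.

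Counts of 3 members could be affected by near-identical copies. Of the 91-base stretches of C1ra transcripts 38.1% are shared with another gene, mainly C1rb, as are 8.82% of C1s1 (with C1s2) and 17.5% of C4b (with C4a). C1rb had 17 and 19 UMIs and C1s2 26 and 18 UMIs over all cells of LI and SI grafts, and C4a had no row. Reads in the shared stretches could have been dropped or split. With no row for C4a, C4b levels could also include reads of C4a, which was not tested. C3, Cfd and Serping1 shared no such stretch.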

How the data were processed

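Single-cell RNA-seq was carried out on sorted donor MSC of LI and SI grafts, 1 library each. The deposited values are UMI counts per gene and cell, made by the authors with Cell Ranger 3.1.0 against mm10 per the submitters' processing notes, which also name Seurat 3. Their filtered matrices were used as deposited, and no normalised values were used. A count of 1 UMI in a class of few cells carries a wide interval, and the depth per library is given in the report.

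Cells were retained at 500 genes or more and at most 10% mt- UMIs, and were gated on marker UMIs per 10000. Gate thresholds were set after the marker rates had been seen, without use of the 8 genes. The members, marker lists and pathway lists were chosen with earlier results of these data known. UMIs were pooled per class as CPM with exact Poisson 95% intervals, shares had Clopper-Pearson intervals, and ratios of CPM + 1 had intervals from an exact binomial split. Genes under 10 CPM in both arms of a ratio were not compared, and called means 2-fold or more. With 1 library per group no p-value was computed. Genes named are the 8 members, a fixed list of other complement genes, and for each member the 3 genes of highest r, and genes that lead clusters or mark interferon were added after their values were seen. Some genes that this rule names are not reported here. Scrublet called 1 cell per library at its own threshold, so no doublets were removed, and removal of the top scores was an alternative. Sex was read from Xist and Y-linked UMIs. The ratio step was tested on simulated data. Alternatives were other cell filters, stricter gates, classes from clusters, TMM scaling (edgeR 4.0.16), mean per-cell CPM, another pseudocount, thinning, doublet removal and each sex alone. Cells were clustered with scanpy 1.11.5, intervals came from scipy 1.17.1, and figures were drawn with matplotlib 3.10.9. Promoters came from RefSeq (GRCm38.p6) and gene positions from the GENCODE annotation of GRCm38.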

Additional observations from a re-analysis of the deposited data

Results flagged for a closer look

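Several ratios pointed in opposite directions in different classes, sexes or grafts, and none of these differences was tested. Pi16 FB and Fgfr2 FB came largely from clusters with different leading genes in the 2 grafts. On the log2 scale of LI over SI grafts, C3 was -2.13 in Fgfr2 FB and 1.71 in SMC, a gated value, while SMC clusters had 21.9 CPM in LI and 27.1 and 19.2 CPM in SI grafts. C4b was -1.24 in Grem1 CD81 FB and 0.43 in PDGFRAhi FB, C1s1 was -0.34 in Pi16 FB and 0.40 in SMC, and C1ra was -0.46 in Grem1 CD81 FB and 0.61 in SMC. C2 was -1.29 in Fgfr2 FB and 0.63 in Pi16 FB, Cfb was -1.36 in Fgfr2 FB and 0.81 in Pi16 FB, and Serping1 was -0.47 in Grem1 CD81 FB and 0.19 in Pi16 FB.

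By sex, C2 was -0.17 between male and 0.31 between female FB of LI over SI grafts, and Cfb was -0.50 and 1.27. For MHC II-positive over negative Pi16 FB, Cfb was -0.94 in LI and 1.55 in SI grafts, and Serping1 was -0.27 and 0.58. Among MHC II-negative FB, male over female Cfb was -1.60 in LI and 1.64 in SI grafts, and C1ra was -0.18 and 0.11. Outside the stromal classes, 1 cell of the SI graft held 142 Cfd UMIs.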

How the results depend on the processing

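No paired analysis was possible because each group is 1 library and no result comes from a test. C4b, the 1 member that differed 2-fold between LI and SI graft FB, fell short of 2-fold, leaving 0 members, under a filter of 200 genes and 20% mitochondrial UMIs, classes from clusters, mean per-cell CPM, a pseudocount of 5 CPM and thinning to 2000 UMIs. Between female cells the count was 1, but the member was Cfb. With classes from clusters 2 members, not 5, peaked in the same class of both grafts. In female cells 1 member (C2) was 2-fold higher in MHC II-positive FB of both grafts, against 2 in all cells. In male cells 3 were (C3, C4b and Cfb), without C2. The other 37 recomputed counts stayed within 1.5 times, among them those without cells near a threshold, an alternative chosen after seeing the data. Of the values of single genes, 374 kept their direction and their side of 2-fold, 34 did not or lay outside the interval of a share (14 of them shares after thinning to 1000 UMIs), and 0 called values reversed. Cfb in LI over SI graft FB, 0.06 on the log2 scale, was -0.25 as a mean per-cell CPM and -0.47 with cells thinned to 2000 UMIs. The causes were not tested. Depth limits the values that rest on few UMIs, such as Cfb (1 UMI), C3 (2) and C2 (3) in ICC of SI grafts.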
